A study of Oryza sativa with 6 samples.

Results

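Malate synthase (MS, LOC9268154), catalase A (catA, LOC4328073), glycolate oxidase 3 (GLO3, LOC4337048) and the H protein of glycine decarboxylase (GDCSH, LOC4349114) were followed in rice flag leaves, the leaf just below the panicle. Each name was matched to a RefSeq gene through its symbol or a synonym, and 7 probe sets were tied to these 4 of the 17905 genes measured. A gene was represented by the probe set with the highest mean over the 6 arrays. The genes were chosen by their names and by their differences between mutant and wild type in these same arrays, so their levels and differences are given as a description, with no test.

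Samples were flag leaves of Oryza sativa, japonica cultivar Zhonghua11, without treatment, from plants raised in a greenhouse and then grown in the field. There were 3 wild type arrays and 3 arrays of a T-DNA insertion mutant of OsSLAC7 (Os01g0385400) in the same cultivar, each an Affymetrix Rice Genome Array hybridised with biotin-labelled RNA of 1 sample. Plant age, the zygosity of the insertion and the number of insertion lines are not given in the sources used here. Replicates are called biological, but nothing states that they came from separate plants, so a p-value here covers only the spread among these 6 arrays, which may be technical.

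Peroxisomes hold several oxidation pathways that meet at glyoxylate and hydrogen peroxide. In photorespiration, glycolate from the chloroplast is oxidised to glyoxylate by glycolate oxidase, which releases hydrogen peroxide. Catalase breaks that peroxide down, and the glyoxylate becomes glycine, which mitochondrial glycine decarboxylase splits. In the glyoxylate cycle, isocitrate lyase makes glyoxylate and malate synthase joins it to acetyl-CoA, so that carbon from fatty acid beta-oxidation can be kept, a route best known from germinating oilseeds and from senescing leaves.

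Values are log2 RMA values, on which a difference of 1 is a doubling of the signal. The number of arrays limits their precision. Array medians over all probe sets lay between 4.59 and 4.72, and correlations of arrays within a group between 0.992 and 0.996, against 0.982 to 0.991 between groups. Of the 17905 genes, 27.3% passed an adjusted p of 0.05 in limma, a linear model with pooled variances, with 3752 higher and 1131 lower in the mutant. The median gene was 0.10 higher in the mutant, and subtracting the median over genes from every array took this to -0.12. That scaling also turned the balance of calls, to 1804 genes higher and 3935 lower, so that 31.4% of the calls were upward in place of 76.8%. The count past the threshold fell to 3000 without wild type replicate 2 and to 2700 without wild type replicate 3, and the lower genes numbered 748 without mutant replicate 3. The targeted gene OsSLAC7 was not matched by name to a probe set and was not analysed here. Of 6 leaf blade markers, the small subunit of Rubisco (RBCS), Rubisco activase (RCA) and the antenna gene CAB2R had wild type means of 14.30, 14.22 and 13.89, near the highest value on the arrays, 14.5. None of the 6 rose and PSB28, of photosystem II, fell (from 11.90 to 11.35), a share of 16.7% next to 6.32% of all genes. With the median over genes subtracted from every array, 3 of the 6 fell (50.0%), next to 22.0% of all genes.

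MS, which uses the glyoxylate of the glyoxylate cycle, was higher in each mutant array than in any wild type array. Its only probe set read 6.36, 6.21 and 6.08 in wild type replicates 1 to 3 and 8.97, 8.87 and 8.80 in mutant replicates 1 to 3. The groups did not overlap, and the lowest mutant value lay 2.44 above the highest wild type value. The means were 6.22 ± 0.14 and 8.88 ± 0.09 (SD, n = 3 each), a difference of 2.67 (SE 0.10), or 6.34-fold. Only 21 genes had a larger rise in this comparison, which placed MS at rank 22 of 17905. Relative to the median gene the difference was 2.57.

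catA, one of the rice catalases that remove hydrogen peroxide, gave a bright signal in wild type leaves already with the probe set that represents it. It read 10.62, 10.52 and 10.57 in the wild type arrays and 12.01, 11.97 and 12.08 in the mutant arrays. Replicates lay close together in both groups (SD 0.05 and 0.06, n = 3 each), and the nearest values of the groups were 1.35 apart. The mean difference was 1.45 (SE 0.07), or 2.73-fold, and 1.31% of genes had a larger rise. The other probe sets of catA gave differences of 1.35 and 1.67, again without overlap. The representing probe set and the one with 1.35 end in _x_at, the mark of probes that can bind related transcripts. The probe set with 1.67 has no such ending and was dimmer. It read 7.86, 7.87 and 7.79 in wild type against 9.69, 9.41 and 9.43 in mutant leaves.

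GLO3 belongs to the small family of glycolate oxidases and was the most variable of the 4 genes. Its only probe set read 5.93, 6.11 and 6.38 in wild type and 7.13, 7.05 and 6.68 in mutant leaves. The groups did not overlap, but wild type replicate 3 and mutant replicate 3 were only 0.30 apart. The means were 6.14 ± 0.23 and 6.95 ± 0.24 (SD, n = 3 each), a difference of 0.81 (SE 0.15), or 1.76-fold. With 1 array left out it ran from 0.71, without wild type replicate 1, to 0.95, without mutant replicate 3.

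GDCSH carries the lipoyl arm that passes the aminomethyl group of glycine between the other subunits of glycine decarboxylase. It differed the other way, with 12.28, 12.37 and 12.36 in wild type and 11.92, 11.86 and 11.77 in mutant leaves. The groups did not overlap and were at least 0.36 apart. The difference was -0.48 (SE 0.08), a level 1.40-fold lower in the mutant, and 2.27% of genes had a larger fall. This probe set ends in _s_at and can bind more than 1 transcript. A second, dim probe set without that ending read 3.64, 3.26 and 3.32 in wild type and 2.92, 3.16 and 2.80 in mutant leaves, a difference of -0.45.

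All 4 members thus had groups that did not overlap, as did 45.6% of all genes, with 32.2% separated upward, as were 3 members, and 13.4% downward, as was GDCSH. Nothing is read from this count, because the choice of the members used this contrast. Among the 3 higher members, MS and catA varied little between replicates, while in GLO3 the spread within groups was a larger part of the difference. In a bulk leaf sample, more cells that hold a transcript and more transcript per cell cannot be told apart.

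**Figure D1:**
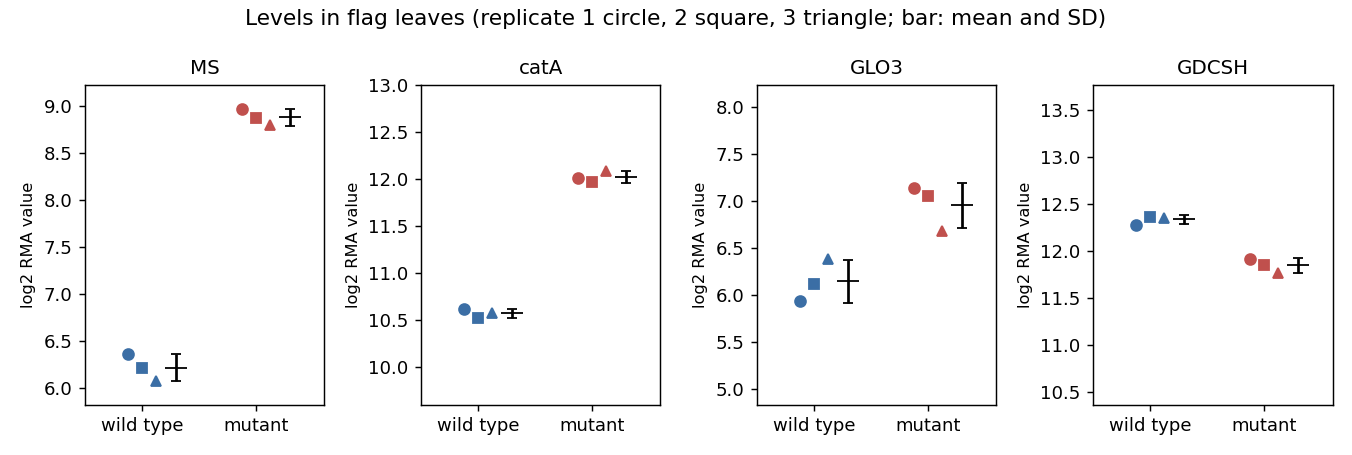
Log2 RMA values of the 4 genes in each array (vertical axis, the same span of values in each panel), with wild type in blue, mutant in red and the mean with its SD (n = 3) as a black bar beside each group. MS, catA and GLO3 are higher and GDCSH is lower in all 3 mutant arrays, and the gap between the groups is smallest for GLO3 (0.30).

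**Figure D2:**
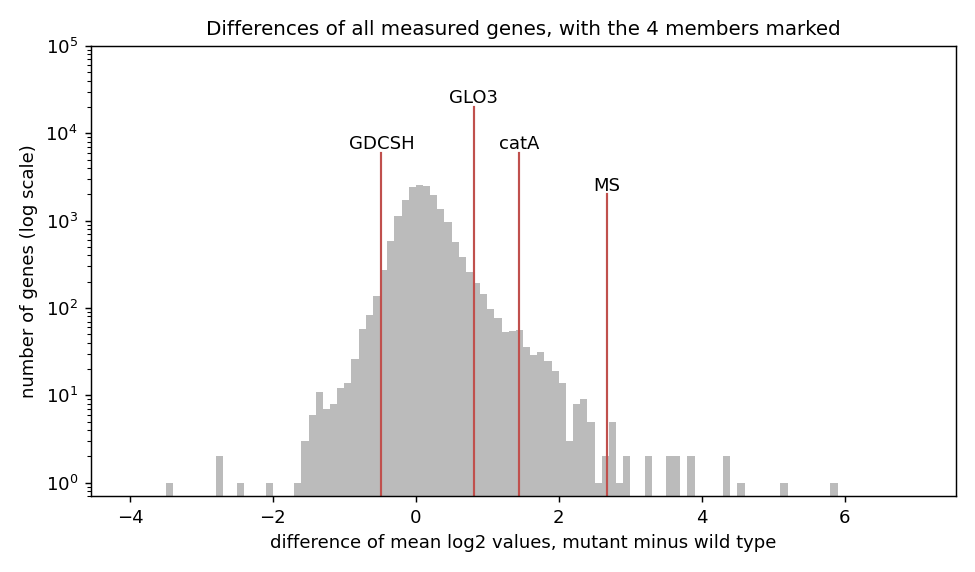
Number of genes (log scale) by mean log2 difference (mutant minus wild type), in bins of 0.1 over all 17905 genes, with the 4 members as red lines. MS (2.67) lies in the far upper tail, catA (1.45) and GLO3 (0.81) on the upper shoulder and GDCSH (-0.48) on the lower side.

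The other genes of the pathways were then read from the same fit. Their lists, and the marker lists, were chosen with earlier results of these data known, so the tests are not independent of that choice. Names on 7 lists of peroxisomal and photorespiratory genes matched 18 genes besides the members, of which 14 were measured, and on a further list, of glycine cleavage and serine genes, GDCSH alone was matched. Of these, 4 rose (28.6%) and none fell, with limma adjusted p under 0.05, next to 21.0% of all genes that rose and 6.32% that fell. With the median over genes subtracted from every array, 3 of the 14 rose (21.4%) and 3 fell (21.4%). Of all genes, 10.1% rose and 22.0% fell with that scaling. The share that rose was thus above the background with that scaling and nearer to it as reported. The share that fell was near the background with that scaling and below it as reported. Among genes above the median level only, 3 of 13 pathway genes rose (23.1%) and 1 fell (7.69%). Of all genes at that level, 29.4% rose and 12.6% fell, so both pathway shares lay below the background there. Each share rests on few genes. As reported, the median difference of the 14 genes was 0.04, below that of all genes. The genes that rose were ICL, catB, MFP and XDH.

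Isocitrate lyase (ICL), which makes the glyoxylate that MS uses, was the pathway gene with the largest difference. It read 3.36, 3.34 and 3.56 in wild type and 5.50, 5.13 and 4.89 in mutant leaves, and no values overlapped. The wild type mean, 3.42, lay below the array medians, and whether it was above background was not analysed here, so no fold is given. ICL rose by 1.75 (SE 0.15) on the log2 scale, with a 95% interval from 1.40 to 2.11 and a limma adjusted p of 0.000319. Across the 13 alternatives in which it was tested, the ICL difference ran from 1.54 to 1.89 and its adjusted p stayed at or below 0.00302. MS and ICL, the enzymes particular to the glyoxylate cycle, were thus higher in all 3 mutant arrays than in any wild type array. ICL was put on its list with earlier results of this contrast known, so its test is not independent support for MS.

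MFP, the multifunctional protein of fatty acid beta-oxidation, read 9.61, 9.46 and 9.43 in wild type and 10.07, 9.90 and 10.05 in mutant leaves. It rose by 0.50 (SE 0.09), with an adjusted p of 0.00584 by limma. Its groups were separate, and the change was 0.40 relative to the median gene. No other beta-oxidation gene was matched by name.

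catB, a further catalase gene, read 9.45, 9.55 and 9.50 in wild type and 9.90, 9.96 and 9.86 in mutant leaves and rose by 0.40 (SE 0.07, limma adjusted p = 0.00673). Its 5 probe sets did not move alike, with differences from -0.09 to 0.59. With the median over genes subtracted from every array the difference was 0.19 and the adjusted p 0.161. The catA difference of 1.45 stands beside this one as a description, since catA was chosen for it.

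Xanthine dehydrogenase (XDH), an enzyme of purine breakdown, read 10.27, 9.98 and 9.97 in wild type and 10.71, 10.64 and 10.83 in mutant leaves. It rose by 0.66 (SE 0.10, limma adjusted p = 0.00411). The enzyme is not a defining peroxisomal one in plants, and without it 3 of 13 pathway genes rose (23.1%), near the 21.0% of all genes. With the median over genes subtracted, 2 of these 13 rose (15.4%, next to 10.1% of all genes) and 3 fell (23.1%, next to 22.0%). Above the median level 2 of 12 rose (16.7%), below the 29.4% of all genes at that level. The ascorbate peroxidase APX4, a peroxide-removing enzyme on the same list, differed by -0.07 with a 95% interval from -0.23 to 0.09 and did not pass.

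**Figure D3:**
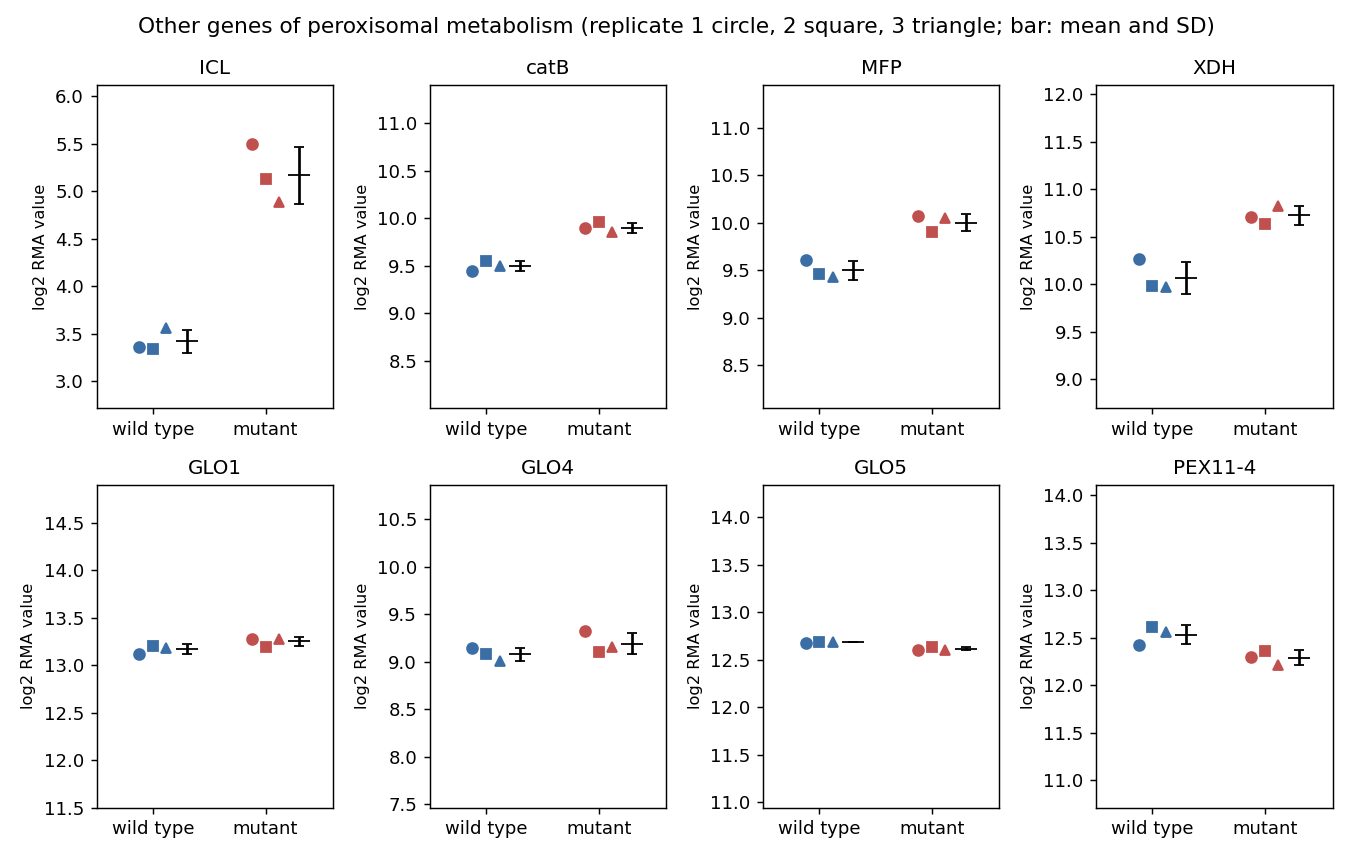
Log2 RMA values in each array of 8 genes, with the same span in each panel: the 4 that rose (top row), the other glycolate oxidases and PEX11-4 (bottom row). Wild type is blue, mutant red, and the black bar gives the mean with its SD (n = 3). ICL shows the widest gap, while the GLO1 and GLO4 groups overlap.

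The other glycolate oxidases did not pass. GLO1 read 13.12, 13.20 and 13.18 in wild type and 13.28, 13.19 and 13.28 in mutant leaves, a difference of 0.08 with a 95% interval from -0.08 to 0.25 (limma adjusted p = 0.410). GLO4 differed by 0.11, with an interval from -0.09 to 0.32 (adjusted p = 0.362 by limma). GLO5 read 12.68, 12.69 and 12.69 in wild type and 12.60, 12.64 and 12.60 in mutant leaves, without overlap, and differed by -0.07, with an interval from -0.23 to 0.08 (limma adjusted p = 0.451). With the median over genes subtracted, GLO1 and GLO4 changed sign, to -0.13 and -0.10, and GLO5 passed at -0.29 (adjusted p = 0.0433). GLO4 is covered by a probe set that can bind related transcripts, and the second probe set of GLO1 differed by -0.15. No test of GLO3 against these genes was made, because GLO3 was chosen for its difference.

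Beside GDCSH, no other subunit of glycine decarboxylase was matched by name. Of 4 further photorespiratory or carbon fixation genes none passed in limma, next to 27.3% of all genes, and 4 genes are too few to read a share from. Fd-GOGAT, the ferredoxin glutamate synthase that helps reassimilate ammonia from photorespiration, differed by 0.06 (95% interval -0.12 to 0.23). GLN2, the chloroplast glutamine synthetase of the same step, differed by -0.04 (interval -0.21 to 0.12), and RCA, which keeps Rubisco active, by 0.02 (interval -0.14 to 0.17). RBCS, the Rubisco small subunit, differed by -0.10 (interval -0.26 to 0.06). RBCS and RCA lie near the top of the measured range. The 4 probe sets of RBCS differed by -0.47 to -0.10, and with the mean over them RBCS passed at -0.24 (adjusted p = 0.0487). It passed in 4 of the 14 alternatives, with a limma adjusted p of 0.00535 where _x_at and _s_at sets were left out.

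The PEX11 proteins act in peroxisome division. PEX11-1 read 13.58, 13.66 and 13.63 in wild type and 13.60 in each mutant array, and differed by -0.02 (95% interval -0.18 to 0.13). PEX11-4 read 12.42, 12.61 and 12.56 in wild type and 12.30, 12.36 and 12.21 in mutant leaves. Its difference of -0.24 (SE 0.08) missed the threshold with a limma adjusted p of 0.0748, while its groups did not overlap. It passed in 5 of the 14 alternatives, with an adjusted p of 0.00511 under an intensity trend.

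**Figure D4:**
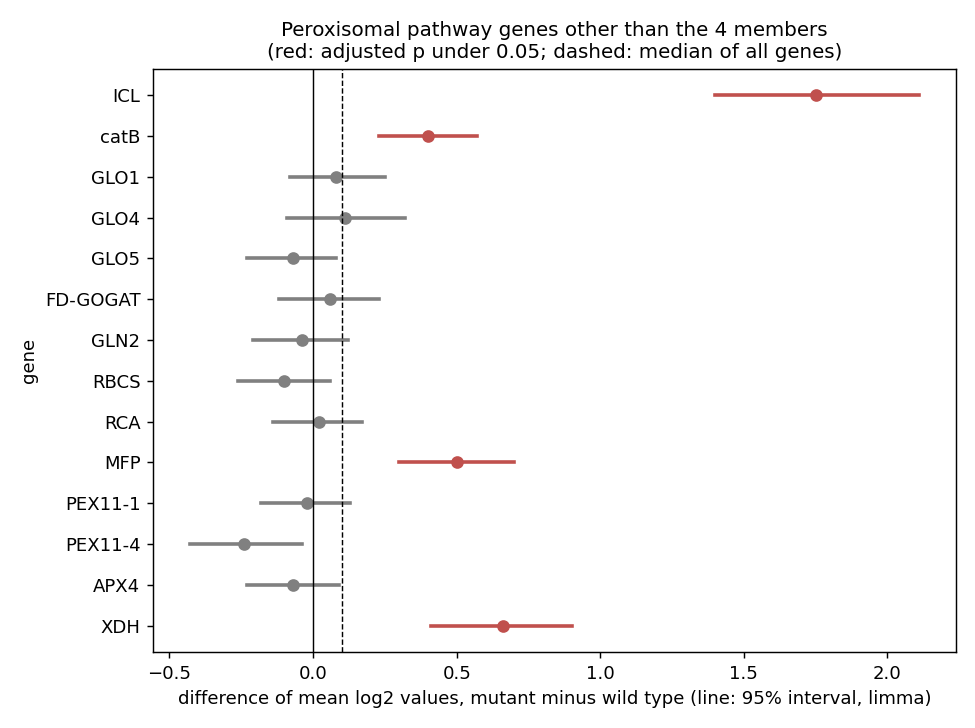
Mean log2 difference (mutant minus wild type) of the 14 pathway genes other than the members (points) with 95% limma intervals (lines), red where the adjusted p is under 0.05, and the median of all genes (0.10) as a dashed line. ICL stands at 1.75, followed by XDH (0.66), MFP (0.50) and catB (0.40), and the other 10 points lie between -0.24 and 0.11.

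Markers of other tissues and states moved in the same arrays. Of 12 panicle and flower markers, 8 rose and none fell by limma, next to 21.0% of all genes that rose and 6.32% that fell, and the log2 of their summed signal was 9.41 to 9.56 in wild type and 9.91 to 10.16 in mutant leaves. Most of that summed signal comes from the brightest of the 12, MADS1 (means 8.23 and 8.61) and MADS16 (7.60 and 8.22). MADS7, a flower organ factor, rose from 3.51 to 5.22, and MADS3, among the dimmest of the 12, read 3.01 and 3.21 without passing. RMA values have no true zero, so none of the markers can be listed at 0. Only 2 of the 12 lay above the median level of all genes, and whether the dimmer ones were above background was not analysed here. With the median over genes subtracted 6 of the 12 rose, next to 10.1% of all genes. Of 4 dividing-cell markers 3 rose (75.0%, next to 21.0% of all genes), or 2 with that scaling (50.0%, next to 10.1%). Their summed log2 signals were 8.02 to 8.21 in wild type and 8.47 to 8.74 in mutant leaves, carried mostly by PCNA (means 7.80 and 8.15). Of 6 markers of seed and germination, the stage for which the glyoxylate cycle is best known, EM alone rose (from 4.96 to 6.36). That is a share of 16.7%, below the 21.0% of all genes. With the median over genes subtracted 1 of the 6 rose and 1 fell (16.7% each), next to 10.1% and 22.0% of all genes. The summed signal of these 6 markers was 9.21 to 9.33 in wild type and 9.14 to 9.24 in mutant leaves. It is carried by the glutelin gene GLUA2 (8.92 to 9.08 and 8.72 to 8.82) and does not show the change of EM. Of 6 senescence markers, OSL2, NOL and RCCR1 rose (50.0%, next to 21.0% of all genes). SAG12 fell by 0.29 (16.7%, next to 6.32%). With the median over genes subtracted 1 of the 6 rose (16.7%, next to 10.1%) and 2 fell (33.3%, next to 22.0%). Their summed log2 signals were 11.33 to 11.43 in wild type and 11.58 to 11.67 in mutant leaves. The stay-green gene SGR, of chlorophyll breakdown, read 9.66 and 9.64 and did not pass. NYC1, the remaining marker of the 6, differed by -0.22 and did not pass either. The part of these tissues or states in the levels of MS, ICL or catA was not tested.

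The pattern over the 6 arrays was compared with that of 991 named genes whose SD over the arrays was 0.2 or more, as a description by Pearson correlation. The difference between groups makes up most of each pattern. Closest to MS were LIR1, a light-regulated gene (r = 0.9988), the ethylene receptor gene ETR2 (0.9987) and the chitinase gene chia4a (0.9985). LIR1 went from 10.90 ± 0.04 to 12.54 ± 0.02 (SD, n = 3 each). Closest to catA were DRR2 (0.9989), the chitinase gene Cht4 (0.9987) and again LIR1 (0.9977). For GLO3, whose replicates spread more, they were the kinesin gene KIN7K (0.9888), OsXRT5 (0.9853) and the cyclin-dependent kinase inhibitor gene KRP6 (0.9851). In KIN7K as in GLO3, replicate 3 was the highest wild type and the lowest mutant array, with 5.23 and 5.61. Closest to GDCSH were OsWRKY24 (0.9977), SAT4 (0.9968) and the alternative oxidase gene AOX1 (0.9966), all lower in the mutant.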

How the data were processed

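The deposited values are on the log2 scale, 1 for each probe set, and come from RMA in affy, per the submitters' processing notes; versions of either are not given in the sources used here. This step equalises probe intensities between arrays, so differences in total RNA are removed. The log2 scale was read from the deposited values, which ran from 1.65 to 14.5. Scanner files were not used here. Of 57381 probe sets, 123 controls were left out, and 22436 of the rest had 1 gene in the platform annotation, 95 had several. All 17905 genes were found in the RefSeq table of assembly ASM3414082v1, used for names only. Sequences were not used here.

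The 3 mutant arrays were set against the 3 wild type arrays in R 4.3.3 with the moderated linear model of limma 3.58.1 (two-sided, no block), with p adjusted by Benjamini-Hochberg over all genes and a threshold of 0.05. The fit was also run on simulated arrays, and no result here rests on that run. Lists were matched by whole names, and a name shared by several genes was not used. GLU1 was left out, since its match was the endoglucanase OsCel9D. All measured genes of the pathway lists are named, with the 3 genes most correlated with each member. Marker lists are given by their counts, with only some of their genes named. Members and lists were chosen with earlier results of these data known. Alternatives were a replicate block, other scalings, weights, variance model, filters, summaries and each array left out. Tables were joined with pandas 2.3.3 and figures drawn with matplotlib 3.10.9 in Python 3.11.15.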

Additional observations from a re-analysis of the deposited data

How the results depend on the processing

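The 14 alternatives changed the direction of none of the 4 members, with differences of 2.45 to 2.74 for MS, 1.23 to 1.67 for catA, 0.60 to 0.95 for GLO3 (13 alternatives, since it falls below the level filter) and -0.70 to -0.44 for GDCSH. Centring arrays by their median over genes gave 2.45 for MS, 1.23 for catA and -0.70 for GDCSH, and the shift by the median deviation gave 1.35 for catA and -0.58 for GDCSH, and both subtract 1 number from a whole array. Leaving out _x_at and _s_at probe sets, catA was 1.67, from another probe set. Calls over all genes split into 1804 up and 3935 down (31.4% up) with that centring and 2704 and 2167 (55.5%) with the shift, against 76.8% up as reported. Leaving out 1 array gave 2700 to 4623 calls, 2128 to 3639 up and 572 to 1024 down. With a replicate block 4754 genes passed, 3743 up and 1011 down, and the same number of pathway genes, 4; deviations of same-numbered arrays correlated at 0.12, 0.12 and -0.02, so the numbers were not taken as pairs. Pathway genes that fell (PEX11-4, RBCS or GLO5) numbered 0 as reported, next to 6.32% of all genes. They numbered 3 with centring (21.4%, next to 22.0% of all genes) and 2 with an intensity trend (14.3%, next to 8.19%). Only 1 fell with the shift (7.14%, next to 12.1%), array weights (7.14%, next to 7.60%) and the level filter (7.69%, next to 12.6%). Again 1 fell with the mean over probe sets (7.14%, next to 6.08%) and without _x_at and _s_at sets (7.69%, next to 6.05%). These shares rest on few genes and lay on both sides of the background. Leaving out any array kept 4 of 14 rising (28.6%) and 0 falling. In those fits 11.9% to 20.3% of all genes rose and 3.19% to 5.72% fell. With centring the sign turned for GLO1 (-0.13), Fd-GOGAT (-0.16), RCA (-0.20) and GLO4 (-0.10), and with the shift for GLO1 (-0.01), Fd-GOGAT (-0.04) and RCA (-0.08). With the mean over probe sets it turned for GLO1 (-0.03). None of these values passed. The cause of these changes beyond the shift itself was not tested. Probe signal over background was not analysed here. This limits dim signals, such as ICL, the second GDCSH probe set and many of the panicle, dividing-cell and seed markers.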
